A study of Caenorhabditis elegans with 12 samples.

Results

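Basement membrane mRNAs of the nematode Caenorhabditis elegans were followed between polysomes and lighter material, in wild-type worms and in worms carrying the mutation ife-1(bn127). Basement membranes are thin sheets of extracellular matrix that underlie epithelia and surround muscle, gonad, pharynx and intestine. Laminin, a trimer of an alpha, a beta and a gamma chain, forms a first network on the cell surface. Collagen IV, a trimer of EMB-9 and LET-2 chains, forms a second one that gives the sheet its strength, and nidogen, collagen XVIII and SPARC attach to these networks or act on their assembly. In this worm much of the collagen IV is made by body wall muscle and carried to other tissues. All of these proteins are secreted, so their mRNAs are translated at the endoplasmic reticulum.

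The members were 10 genes chosen by name, by the known role of their products in the basement membrane. Probe sets, the groups of probes that report 1 transcript on an Affymetrix array, were found for 9 of them. There were 11 such probe sets among the 13333 tested, since emb-9 and ost-1 have 2 each. The peroxidasin gene pxn-2 was not analysed here. Names came from the platform annotation. For epi-1, let-2, nid-1 and 1 probe set each of emb-9 (190353_s_at) and ost-1 (191389_s_at) the deposited description gives the same gene symbol, as it does for the second emb-9 probe set (173790_at). The probe sets of lam-1 and lam-2 and the second ost-1 probe set (171988_at) are described there only as end reads of cDNA clones. The probe set of cle-1 is described by the gene model F39H11.4, as a collagen, and that of lam-3 by C43H8.3. These genes' names therefore rest on the platform annotation alone, which lists cle-1 under 2 gene identifiers, and which transcripts the probes match was not checked here. The descriptions place lam-3 and cle-1 on chromosome 1, emb-9 on chromosome 3, epi-1, lam-1 and ost-1 on chromosome 4, nid-1 on chromosome 5, and lam-2 and let-2 on chromosome X. Names ending in _s_at or _x_at mark probes that may match more than 1 transcript.

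IFE-1, made in the germline, is one of the worm's eIF4E proteins, which bind the mRNA cap at the start of translation. Wild-type worms of the strain N2 and ife-1(bn127) worms were grown as mixed populations of adults, larvae and eggs, with a final 3 days at 20 °C on OP50 bacteria with added chicken egg yolk. Lysates were spun through gradients of 10 to 45% sucrose, and RNA lighter than 80S (nonpolysomal, NP) and heavier than 80S (polysomal, P) was pooled separately. Each genotype has 3 separately harvested cultures, numbered by growth set, so there are 12 arrays in 4 groups of 3. Their number limits the precision of every value.

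The label was checked on the mutated gene. Deposited signals of ife-1 lay between 3567 and 5997 on the 6 wild-type arrays and between 62.3 and 177.7 on the 6 mutant arrays. Array medians ranged from 368 to 430. Summed signals of tissue marker genes over both fractions also differed between cultures. Single markers were called higher or lower in this combined signal by limma (adjusted p under 0.05). By the same test 18.5% of all probe sets were lower and 21% higher. Body wall muscle markers summed to 122145 to 125563 in wild type and to 102406 to 111045 in the mutant, with 4 of 8 markers lower. Hypodermis and cuticle markers summed to 52080 to 61846 and to 38640 to 43837, with 2 of 5 lower. Neuron markers (3 of 5 measured) summed to 14643 to 16947 and to 13396 to 14500, with 1 lower. Intestine markers summed to 55265 to 68512 and to 81742 to 87631, with 2 of 5 higher and 2 lower. Germline markers were higher in the mutant (50309 to 56152 against 31466 to 36197), with 6 of 7 past the test. Sperm markers were low in wild-type culture 2 (73526, against 149192 and 146218 in cultures 1 and 3). In the mutant they summed to 84336 to 91310, also below wild-type cultures 1 and 3, with 0 of 6 markers past the test. The log2 P/NP values of wild-type culture 2 correlated less with the other wild-type cultures (0.773 and 0.755) than these did with each other (0.858). In such whole-worm RNA, fewer cells of a type and less RNA per cell cannot be told apart.

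The first question was where these mRNAs sediment in wild type. Most basement membrane mRNAs gave higher normalized signals in polysomal RNA, which is called polysomal here. By the brightest probe set of each gene, 7 of 9 members were polysomal in wild type and 0 nonpolysomal (limma, adjusted p under 0.05), where 26.5% of all probe sets were polysomal and 29.3% nonpolysomal by this test. The same 7 had an unadjusted p under 0.05, as had 61.5% of all probe sets. The median log2 P/NP of the 9 was 1.56, beside -0.04 over all probe sets. In the mutant 8 of 9 were polysomal and 0 nonpolysomal, against 22.7% and 26.1% of all probe sets, and their median was 1.40 beside -0.06. Without adjustment 8 passed as well, beside 56.2% of all probe sets. Signals were normalized before ratios were taken, so these ratios are relative to the average mRNA of each array.

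**Figure D1:**
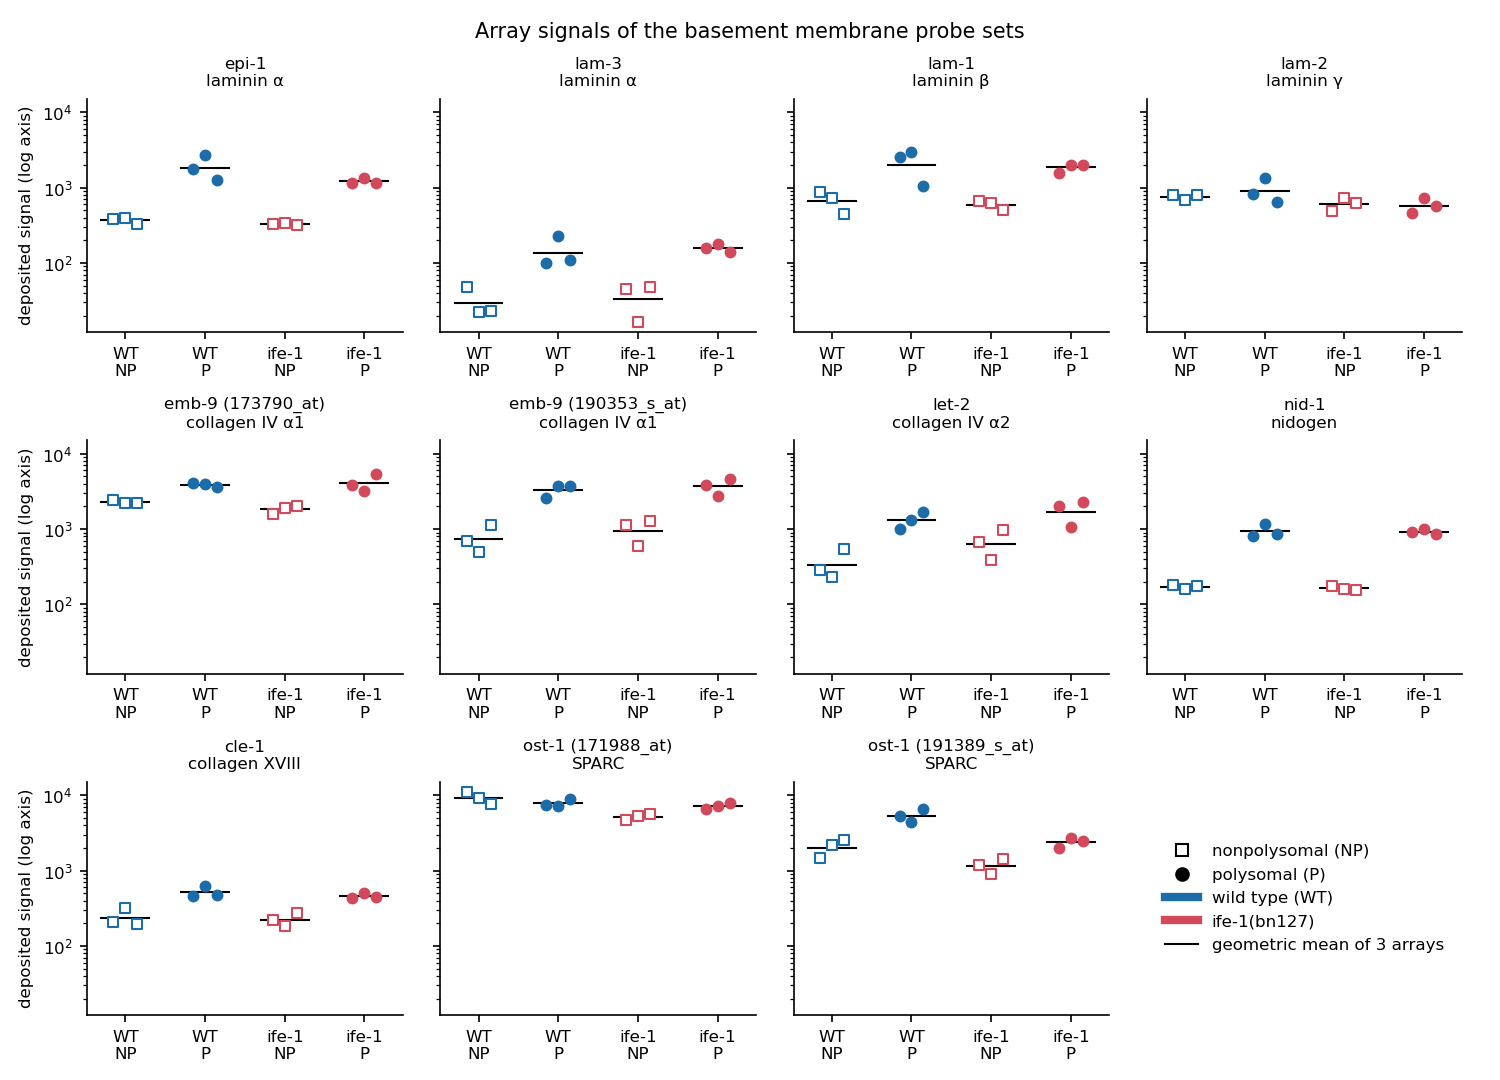
Deposited signal (log axis) of each basement membrane probe set on the 12 arrays, by genotype and fraction; each point is 1 array and the line is the geometric mean of 3. In wild type the fractions of lam-2 and of the ost-1 probe set 171988_at overlap. For every other probe set the wild-type polysomal points lie above all wild-type nonpolysomal points.

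Among the laminin chains, epi-1 encodes one of the pair of alpha chains and had the highest wild-type share of the polysomal fraction. Its deposited signals were 386.4, 392.9 and 326.1 in nonpolysomal and 1777, 2700 and 1277 in polysomal RNA of wild-type cultures 1 to 3. In the mutant they were 324.2, 339.8 and 317.7, and 1157, 1337 and 1139. The fractions thus did not overlap in either genotype, and the highest polysomal value was that of wild-type culture 2. The polysomal share P/(P+NP) was 82.9% ± 3.45 for wild type and 76.6% ± 1.52 for mutant cultures (SD, n = 3). The log2 P/NP was 2.29 ± 0.17 in wild type (SE; limma adjusted p = 5.63e-05).

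The other alpha chain gene, lam-3, gave far dimmer signals. Wild-type nonpolysomal arrays read 47.7, 22.5 and 23.1 and polysomal arrays 100.2, 228.8 and 108.9. Mutant arrays read 45.8, 16.7 and 47.3, and 158, 180 and 138.8. No wild-type nonpolysomal array and 1 of 3 in the mutant called lam-3 present, while all polysomal arrays did. By the mean estimate its wild-type polysomal signal was 4.54-fold higher than its nonpolysomal signal (limma adjusted p = 0.00211), which is not a lower limit. Its shares of 80.6% ± 10.97 and 78.3% ± 9.48 rest on a largely undetected nonpolysomal signal. All other members were called present on every array.

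The only beta chain, lam-1, was also polysomal. Wild-type signals were 880.3, 727.1 and 444 in nonpolysomal and 2554, 2946 and 1056 in polysomal RNA, and mutant signals 661.9, 627.2 and 500, and 1581, 1995 and 2025. Wild-type culture 3 had the lowest polysomal signal of all 6 cultures. Each culture's polysomal value still exceeded its nonpolysomal one, and the shares were 74.5% ± 4.16 and 75.2% ± 4.33.

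The gamma chain gene lam-2, whose product joins both kinds of laminin trimer, stood apart from its partner chains by its only probe set. Where a member had 2 probe sets, their wild-type shares differed (62.1% and 80.1% for emb-9, 50.8% and 71.6% for ost-1). Whether the lam-2 value belongs to the probe set or to the gene was not tested. Signals in wild type were 795.5, 685.4 and 794 in nonpolysomal and 821.2, 1332 and 654.3 in polysomal RNA. In the mutant they were 490.3, 739.1 and 633.7, and 457.8, 733 and 569.5. The fractions overlapped in both genotypes. The shares were 52.8% ± 9.88 and 46.9% ± 1.51, and log2 P/NP was 0.17 ± 0.21 without and -0.18 ± 0.21 with the mutation (SE; adjusted p = 0.512 and 0.5). Without wild-type culture 2, whose share was 63.9%, the wild-type value was -0.16. The 95% intervals of log2 P/NP in wild type ran from -0.31 to 0.65 for lam-2, from 1.14 to 1.97 for lam-1 and from 1.91 to 2.68 for epi-1. Differences between genes were not tested.

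Collagen IV showed the same fraction preference in both of its chains. For let-2, the alpha-2 chain, wild-type signals were 288.5, 234.2 and 549.2 in nonpolysomal and 1010, 1312 and 1702 in polysomal RNA. Mutant signals were 678.5, 392.4 and 971.7, and 2023, 1059 and 2287. Shares were 79.4% ± 4.75 and 72.5% ± 2.44. For emb-9, the alpha-1 chain, the probe sets gave the same direction and different sizes. Signals of 190353_s_at in wild type were 700.8, 491.9 and 1132 in nonpolysomal and 2581, 3735 and 3691 in polysomal RNA, which is a share of 80.1% ± 6.65. The mutant readings were 1122, 590.2 and 1269, and 3873, 2769 and 4676, a share of 81.1% ± 1.42. The brighter 173790_at read 2434, 2221 and 2232, and 4126, 3918 and 3624 in wild type, a share of 62.1% ± 1.47. In the mutant it read 1570, 1933 and 2047, and 3814, 3222 and 5368, a share of 70.8% ± 6.04. Wild-type log2 P/NP was 2.07 ± 0.23 by the first and 0.71 ± 0.17 by the second (SE; adjusted p = 0.000195 and 0.00852), with 95% intervals of 1.54 to 2.59 and 0.31 to 1.11. Both probe sets passed the test in both genotypes.

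Nidogen, encoded by nid-1, is a linker between the laminin and collagen IV networks and was the most polysomal member by its ratio in either genotype. Wild-type arrays read 180.7, 159.7 and 174.8 in nonpolysomal and 821, 1179 and 867 in polysomal RNA, and mutant arrays 176.7, 161.3 and 154.5, and 917.4, 1006 and 867. Shares were 85.4% ± 2.76 and 82% ± 2.23. Collagen XVIII, encoded by cle-1 and a carrier of an endostatin domain, had deposited signals of 185.3 to 314.4 in nonpolysomal and 434.4 to 632 in polysomal RNA over both genotypes. Its shares were 68.6% ± 3.40 and 62.9% ± 5.77.

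The probe sets of ost-1, which encodes SPARC, a collagen-binding matrix protein, disagreed in wild type. By 171988_at, the brightest of all members' probe sets, wild-type signals were 10899, 9325 and 7589 in nonpolysomal and 7476, 7221 and 8888 in polysomal RNA. The fractions overlapped, and the share was 50.8% ± 4.71 (log2 P/NP 0.05 ± 0.15, SE; adjusted p = 0.801). The sign of this value turned with the scaling: it was -0.23 with signals as deposited. By 191389_s_at wild-type signals were 1460, 2170 and 2550, and 5308, 4362 and 6589, and the share was 71.6% ± 5.41 (log2 P/NP 1.35 ± 0.21; adjusted p = 0.001). In the mutant both were polysomal, with shares of 60.8% ± 0.19 and 68.2% ± 6.67. For 171988_at that call was lost when arrays were scaled to a common median (log2 P/NP 0.29, adjusted p = 0.216), without set 1 (0.63, adjusted p = 0.066) and without mutant culture 1 (0.63, adjusted p = 0.0502). The cle-1 call in the mutant was lost without mutant culture 2 (0.56, adjusted p = 0.0507), and the emb-9 call of 173790_at in wild type without set 1 (0.71, adjusted p = 0.0635).

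**Figure D2:**
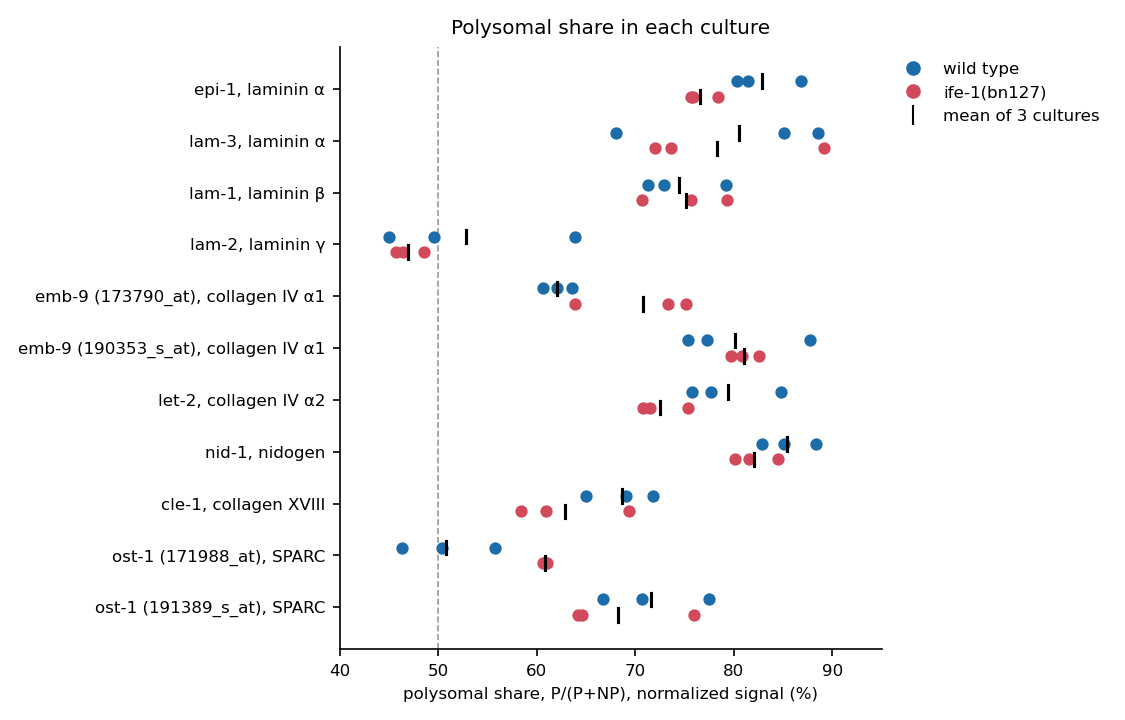
Polysomal share P/(P+NP) of normalized signal, in percent, for each basement membrane probe set; each point is 1 culture, the vertical tick is the mean of 3 cultures, and the dashed line marks equal signal in both fractions. All 6 cultures of epi-1, lam-3, lam-1, let-2 and nid-1 lie above 68%, and lam-2 lies around the dashed line.

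The central comparison of the study asked whether polysomal content changed without IFE-1. No basement membrane mRNA passed that test. Of the 9 members 0 were called higher and 0 lower by limma, where 0.03% of all probe sets were called higher and 0.0975% lower. Among the 9, 3 had an unadjusted p under 0.05, where 20.5% of all probe sets did. Estimates of the change in log2 P/NP, mutant minus wild type, ran from -0.58 to 0.59, and their median was -0.35 beside 0.03 over all probe sets.

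The estimates did not share a direction. For epi-1 the shares of wild-type cultures 1 to 3 were 81.5%, 86.8% and 80.3%, and those of mutant cultures 75.6%, 78.4% and 75.8%. All mutant cultures lay below all wild-type cultures, and the change in log2 P/NP was -0.58 ± 0.24 (SE; limma adjusted p = 0.217). For let-2 they were 77.7%, 84.8% and 75.8%, and 75.3%, 71.5% and 70.8%, again without overlap, with a change of -0.57 ± 0.26 (adjusted p = 0.263). The brighter emb-9 probe set moved the other way, from 62%, 63.6% and 60.6% to 73.3%, 63.9% and 75.2% (change 0.58 ± 0.25, adjusted p = 0.23). So did the brighter ost-1 probe set, from 46.4%, 50.4% and 55.7% to 61%, 60.6% and 60.9% (change 0.59 ± 0.21, adjusted p = 0.175). In both, all mutant cultures lay above all wild-type cultures. Such separation was found below wild type for 12.4% and above wild type for 14.8% of all probe sets.

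The further probe sets of these genes gave other values. For emb-9 190353_s_at the change was 0.03 ± 0.32 and for ost-1 191389_s_at it was -0.23 ± 0.30, with adjusted p of 0.966 and 0.701. Set beside -0.57 for let-2, the partner chain emb-9 thus read 0.58 or 0.03, and no test compared the genes. Changes for nid-1, cle-1 and lam-2 were -0.37 ± 0.24, -0.36 ± 0.25 and -0.35 ± 0.30. For lam-1 and lam-3 they were 0.06 ± 0.26 and -0.22 ± 0.57, with 95% intervals of -0.54 to 0.65 and -1.52 to 1.07. With signals as deposited the change read 0.042 for nid-1, 0.039 for lam-3 and -0.20 for emb-9 190353_s_at, and with median scaling -0.017 for lam-1, so their signs depended on the scaling. Changes within the intervals of lam-1 and lam-3 were not excluded here. In the authors' deposited table the mean fold of the polysomal share, wild type over ife-1, ranged over the members from 0.793 for ost-1 171988_at to 1.11 for lam-2.

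**Figure D3:**
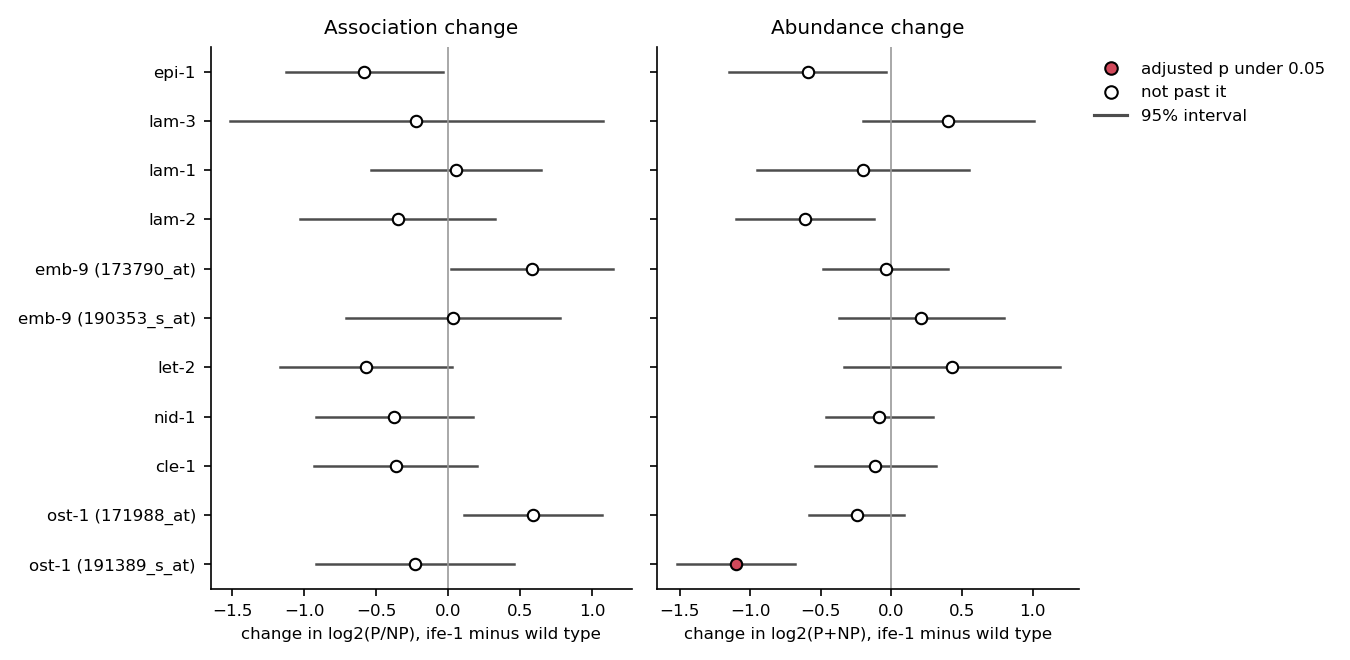
Difference between ife-1(bn127) and wild type in log2(P/NP) (left) and in log2(P+NP) (right) for each basement membrane probe set; points are limma estimates from 3 cultures per genotype, bars are 95% intervals, and a filled point has an adjusted p under 0.05. The filled point is the lower combined signal of the ost-1 probe set 191389_s_at, at -1.10.

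Combined signal of both fractions, log2(P+NP), was compared as a relative measure of mRNA level. Arrays were normalized to a common distribution before this sum, so it does not reflect how much RNA each fraction held. The clearest difference was in ost-1 by 191389_s_at. Its wild-type cultures had combined values of 12.74, 12.70 and 13.15 and its mutant cultures 11.58, 11.84 and 11.87, without overlap. Both fractions were lower: mutant signals were 1169, 903.7 and 1440 in nonpolysomal and 1995, 2715 and 2474 in polysomal RNA. The difference was -1.10 ± 0.18 (SE; limma adjusted p = 0.00387), or 2.14-fold lower. Without set 1 it was -1.07 and did not pass (adjusted p = 0.0698). By the brighter 171988_at the wild-type values were 13.98, 13.95 and 13.91 and the mutant values 13.58, 13.69 and 13.84. These did not overlap either, but the difference was -0.24 ± 0.15 and did not pass (adjusted p = 0.213). It passed with signals as deposited (-0.48, adjusted p = 0.0354) and with median scaling (-0.52, adjusted p = 0.0299). Body wall muscle marker sums were also lower in every mutant culture, as given above, and their part in the ost-1 difference was not tested.

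By the brightest probe sets, 0 of 9 members changed in combined signal by limma, and 2 of them had an unadjusted p under 0.05. Over all probe sets 18.5% were called lower and 21% higher, and 49.8% had an unadjusted p under 0.05. The median difference of the 9 was -0.11 beside 0.06 over all probe sets. By their brightest probe sets 2 members, lam-2 and ost-1, had all mutant cultures below all wild-type cultures, as had 24.1% of all probe sets, and 0 had them all above, as had 29.5%. The gamma chain lam-2 came closest, with wild-type values of 10.74, 11.02 and 10.57 and mutant values of 9.84, 10.48 and 10.19. All mutant cultures lay below wild type (difference -0.61 ± 0.21, adjusted p = 0.0524). With the growth set as a replicate block the same difference passed (adjusted p = 0.0439). It also passed with an offset of 50 (-0.57, adjusted p = 0.0415) and without set 2 (adjusted p = 0.0272). For epi-1 the wild-type values were 11.13, 11.64 and 10.71 and the mutant values 10.50, 10.72 and 10.48, a difference of -0.59 ± 0.24 (adjusted p = 0.085), with mutant culture 2 just above wild-type culture 3. Without wild-type culture 3, epi-1 passed at -0.82 (adjusted p = 0.0258) and lam-1 at -0.60 (adjusted p = 0.031). The estimate of lam-1 over all cultures was -0.20 ± 0.32, and without wild-type culture 2 it was 0.03.

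The dim alpha chain lam-3 differed by 0.40 ± 0.26 (adjusted p = 0.247). Wild-type culture 2 was its highest wild-type value, 7.84 beside 7.09 and 6.81, and without that culture the difference was 0.70 and passed (adjusted p = 0.0125). For nid-1 the difference was -0.09 ± 0.16 and for cle-1 -0.11 ± 0.18, with 95% intervals of -0.46 to 0.29 and -0.54 to 0.31. For emb-9 it was -0.04 ± 0.19 by 173790_at and 0.21 ± 0.25 by 190353_s_at. For let-2 it was 0.43 ± 0.33 (adjusted p = 0.328).

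Cultures varied within a genotype, and some chains of 1 protein ordered them alike. By let-2 the combined values were 10.39, 10.60 and 11.21 in wild-type cultures 1 to 3 and 11.37, 10.49 and 11.61 in mutant cultures 1 to 3. By emb-9 190353_s_at they were 11.70, 12.07 and 12.26, and 12.33, 11.75 and 12.59. Both gave the same order of all 6 cultures, lowest in wild-type culture 1 and highest in mutant culture 3. The brighter emb-9 probe set gave the same order of the mutant cultures (12.41, 12.35 and 12.93) but the opposite order in wild type, within a narrow range (12.67, 12.60 and 12.53). The laminin genes epi-1, lam-1, lam-2 and lam-3 had their highest wild-type value in culture 2 and their lowest in culture 3. This order was not particular to laminin. It was also that of cle-1 (9.37, 9.88 and 9.36) and of other matrix genes such as ptp-3 (12.18, 12.60 and 12.09), though not of unc-52 (11.53, 11.59 and 11.66). Its share over all probe sets was not counted. Culture 2 is also the wild-type culture with the low sperm marker sum. In wild-type culture 3 the somatic gonad markers (3 of 4 measured) summed to 2810, beside 5527 and 5262 in wild-type cultures 1 and 2 and 4932 to 5722 in mutant cultures. The part of either in this order was not tested. These orders are descriptions of 6 cultures, with no test.

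**Figure D4:**
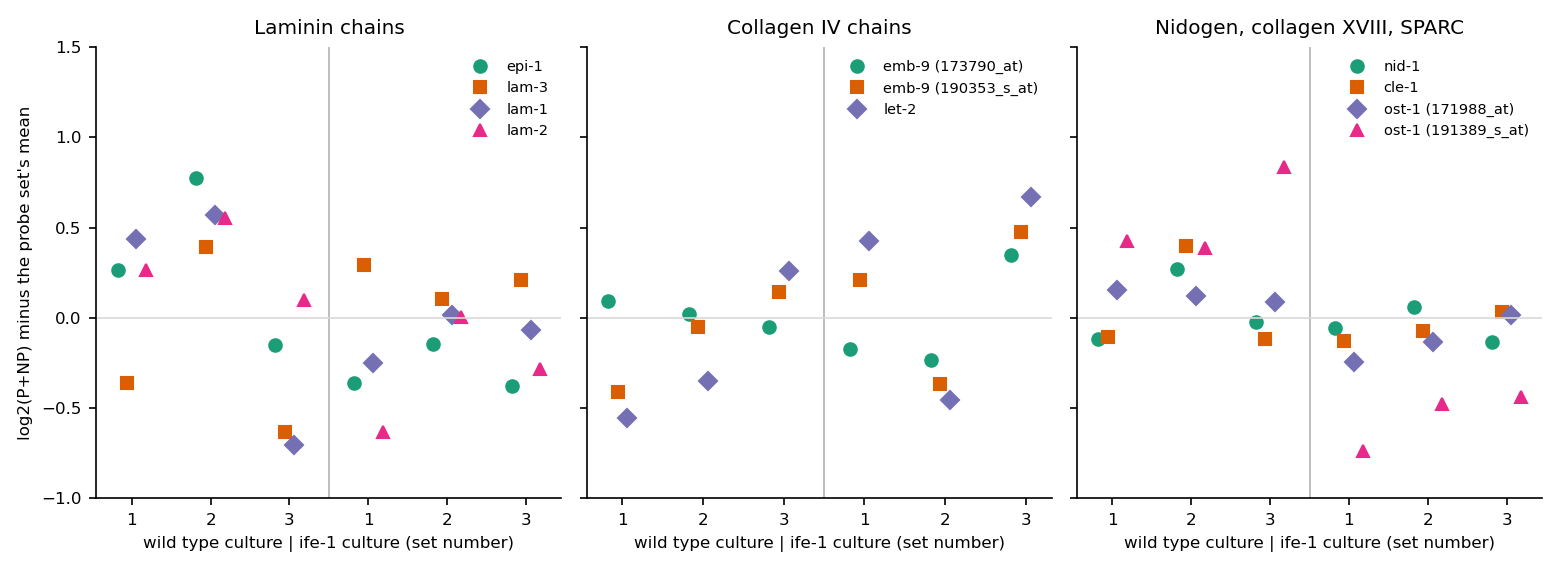
Combined signal log2(P+NP) of each basement membrane probe set in the 3 wild-type and 3 ife-1 cultures, as the difference from that probe set's mean over 6 cultures; each point is 1 culture. All laminin genes, nid-1 and cle-1 peak in wild-type culture 2 among the wild-type cultures, and let-2 and the emb-9 probe set 190353_s_at are highest in mutant culture 3.

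The order of the 4 groups was set by the fraction more than by the genotype. By mean normalized log2 signal both polysomal groups ranked above both nonpolysomal groups for 10 of the 11 probe sets. Within each fraction the genotypes overlapped for most of these. For epi-1 polysomal wild-type RNA (10.89 ± 0.52, SD, n = 3) lay above polysomal mutant RNA (10.18 ± 0.16) without overlap. For emb-9 173790_at and nid-1 the nonpolysomal groups did not overlap, with wild type higher for emb-9 (11.20 ± 0.07 against 10.77 ± 0.23) and lower for nid-1 (7.36 ± 0.09 against 7.58 ± 0.13). For ost-1 191389_s_at the order was polysomal wild type (12.38 ± 0.27), polysomal mutant (11.21 ± 0.25), nonpolysomal wild type (11.03 ± 0.40) and nonpolysomal mutant (10.08 ± 0.30), where only the middle groups overlapped. The exception to the fraction order was lam-2, whose wild-type groups ranked above its mutant groups. For ost-1 171988_at 3 groups overlapped from 1 rank to the next, and the nonpolysomal mutant group (12.35 ± 0.13) lay below them.

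A wider list held 26 other genes of the matrix, its enzymes and its receptors, of which 23 were measured. Among them 15 were polysomal and 0 nonpolysomal in wild type (limma; median log2 P/NP 0.68), beside 26.5% and 29.3% of all probe sets and their median of -0.04. In the mutant 14 were polysomal and 0 nonpolysomal (median 0.81), beside 22.7% and 26.1% of all probe sets and their median of -0.06. In combined signal 10 of the 23 were lower in the mutant and 0 higher, beside 18.5% lower and 21% higher over all probe sets, and the list's median was -0.43. No gene of the list passed in log2 P/NP between genotypes, and 4 of 23 had an unadjusted p under 0.05, beside 20.5% of all probe sets. In the same cultures the marker sums given above were lower for body wall muscle, for hypodermis and cuticle and for neurons, and higher for germline and intestine. Single intestine markers went both ways, with 2 of 5 higher and 2 lower. The part of these marker differences in the list's lower signals was not tested.

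The largest decrease on the wider list was that of phy-2, a subunit of collagen prolyl 4-hydroxylase. Its wild-type values of log2(P+NP) were 11.13, 10.87 and 11.15 and its mutant values 9.10, 9.48 and 8.81, a difference of -1.92 ± 0.20 (SE; limma adjusted p = 0.001). The protein disulfide isomerase gene pdi-2, whose product is the beta subunit of that enzyme, fell by 0.80 on the log2 scale (adjusted p = 0.00919). The lysyl hydroxylase let-268, which modifies collagen IV, fell by 0.64 (adjusted p = 0.0245), although none of its nonpolysomal arrays was called present in either genotype. Collagen IV itself did not pass in these cultures, as given above.

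Matrix proteins on the list that fell were unc-52, the perlecan of muscle attachment, by 1.03 on the log2 scale (adjusted p = 0.00209), fbl-1, fibulin, by 0.71 (with no present call in nonpolysomal mutant RNA), him-4, hemicentin, by 0.55, and test-1, testican, by 0.68. The netrin gene unc-6, which encodes a laminin-related guidance cue, fell by 0.83 (adjusted p = 0.0117). The metalloprotease mig-17, which remodels the gonadal basement membrane, fell by 1.01 (adjusted p = 0.00881), and its nonpolysomal arrays also had no present call. The dystroglycan gene dgn-1, a laminin receptor, fell by 0.57 (adjusted p = 0.0369). Among the 13 genes that did not pass, the 6 with the smallest p in either log2(P+NP) or log2(P/NP) had combined-signal differences below 0 except ddr-1. These were the glypican gpn-1 (-0.48 ± 0.17, SE; adjusted p = 0.0581), the F-spondin spon-1 (-0.43 ± 0.23), the collagen receptors ddr-1 (0.03 ± 0.20) and ddr-2 (-0.32 ± 0.20), the integrin alpha chain pat-2 (-0.38 ± 0.30) and dig-1, a very large matrix protein (-0.29 ± 0.32). Over all 23 genes 5 estimates lay above 0, the highest at 0.31, and 18 below. The count of lower genes was 1 without set 1, 3 without set 3 and 5 without mutant culture 1 or mutant culture 3. Lower calls over all 13333 probe sets fell as well, from 2470 to 518 without set 1 and 1053 without set 3. They were 1485 without mutant culture 1 and 1639 without mutant culture 3.

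**Figure D5:**
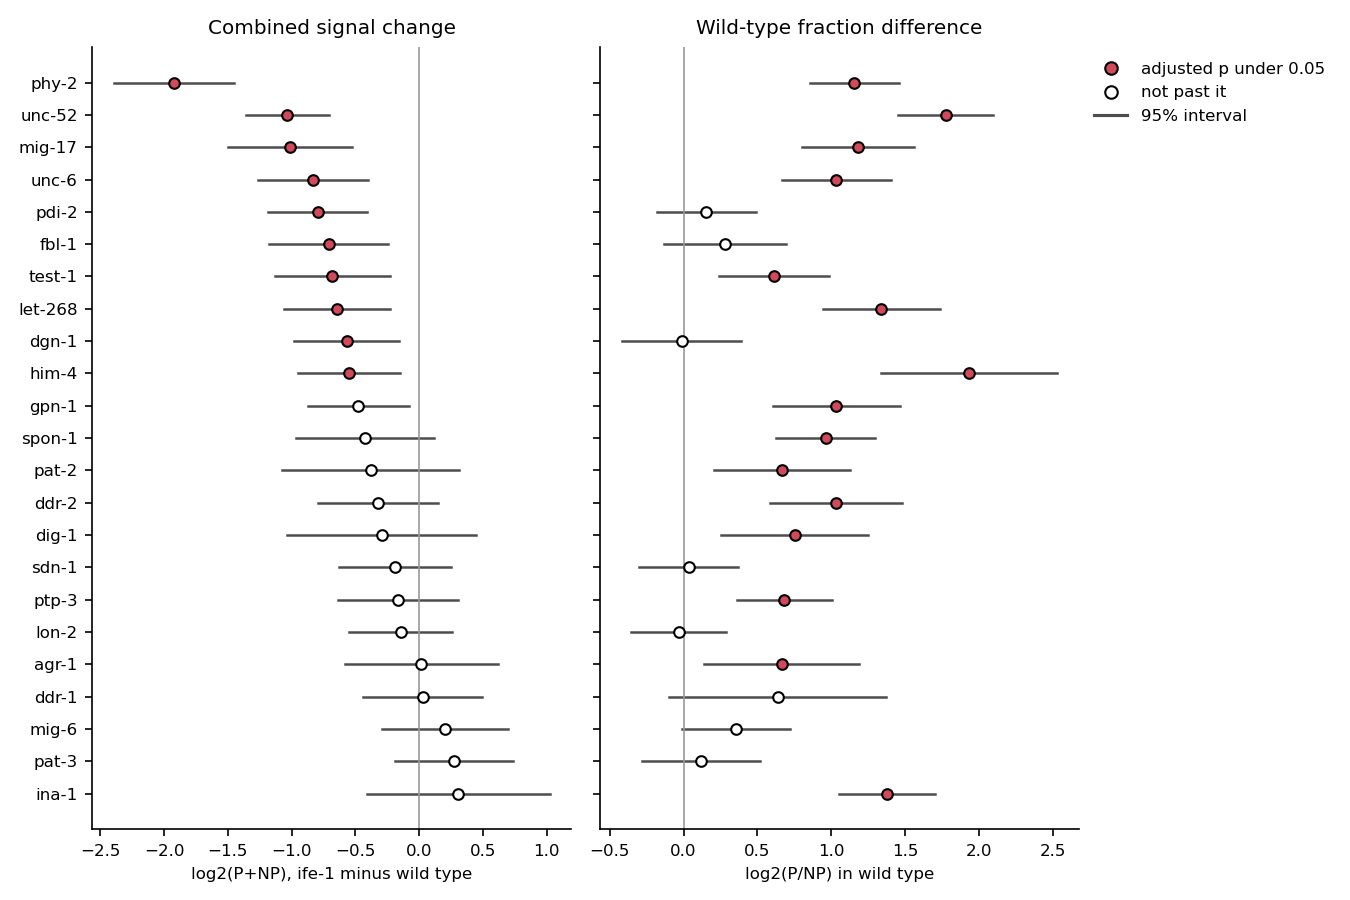
The 23 measured genes of the wider matrix list, ordered by their change in combined signal; the left panel gives ife-1 minus wild type in log2(P+NP) and the right panel log2(P/NP) in wild type. Points are limma estimates, bars are 95% intervals, and filled points have an adjusted p under 0.05; the 10 filled points on the left all lie below 0.

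In association, the wider list held values on both sides of 0. For him-4 the wild-type shares were 70.3%, 87% and 78% and the mutant shares 63%, 68.8% and 59.7%, and the change in log2 P/NP was -1.11 ± 0.37 (SE; limma adjusted p = 0.155). All mutant cultures lay below wild type. For pdi-2 they were 52.8%, 54.1% and 51.1%, and 67.9%, 63.1% and 60%, a change of 0.66 ± 0.21 (adjusted p = 0.142). For phy-2 the shares were 69% ± 0.93 and 76.4% ± 1.23, and for test-1 60.4% ± 5.90 and 70.4% ± 0.61 (SD, n = 3). In pdi-2, phy-2 and test-1 all mutant cultures lay above wild type, and none passed. Of the 23 genes 1 was thus separated below and 3 above wild type, beside 12.4% and 14.8% of all probe sets.

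Likeness to the members was measured by Pearson's correlation, over the 12 normalized arrays, with the mean standardized profile of the 9 members. The arrays share the fraction contrast, so this measure mostly ranks how alike genes divide between fractions. Of 10346 other genes the most alike were unc-22, the giant muscle protein twitchin (0.975), rpm-1, a ubiquitin ligase of synapses (0.974), F48D6.4 (0.974), msrp-7 (0.971) and tln-1, talin (0.967). Their wild-type polysomal shares were 82.8%, 82.5%, 77.6%, 80% and 68.9%. Among the members themselves the correlation with this mean ranged from 0.976 for epi-1 down to 0.70 for ost-1 and 0.222 for lam-2, whose own values are part of the mean.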

How the data were processed

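RNA from polysomal and nonpolysomal fractions of both genotypes was hybridised to 12 Affymetrix arrays. Per the labels, the deposited intensity values are raw, linear signals, 1 for each probe set. The software behind them was not given in the sources used here. Per the file headers, the authors filtered 22626 probe sets on detection and kept 13372. Detection calls in the workbook name the group but not the array. The deposited workbook's ratios, wild type over ife-1, were recomputed from the signals with a largest deviation of 1.24e-08. A further 36 per-sample columns of it were left aside.

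Removing 39 controls left 13333 probe sets, of which 12649 are annotated to 1 gene, 426 to several and 258 to none. The RefSeq gene table matched 12595. A gene is represented by its brightest probe set. Signals were raised to a floor of 1 where lower (5 values), log2-transformed and quantile-normalized. For each culture, log2(P/NP) measured association and log2(P+NP) combined signal. Both were fitted over the 6 cultures with lmFit and eBayes of limma 3.58.1 (R 4.3.3). Tests are two-sided, adjusted by Benjamini-Hochberg over all 13333 probe sets, and called at 0.05. For a group with no present call, a bound used its own signal or, if higher, the weakest signal of any probe set that all 3 of its arrays called present. The bound for lam-3 equalled its own signal, so its fold is the mean estimate and not a lower limit. Plots used matplotlib 3.10.9 (Python 3.11.15). The fitting script was tested on simulated arrays with known changes. For log2(P/NP) this required a correct mean estimate only, and no share of the changes to be called.

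The text names every member, the wider list's called genes and the next 6 by their smallest p in either genotype comparison (log2 P/NP or log2 P+NP), and the 5 genes most alike. Members, lists and tests were chosen with earlier results of these data known. The alternatives tried were other scalings (none, median, quantile within each fraction), an offset of 50, brighter probe sets alone, a variance trend, the growth set as a replicate block, a fit to 12 unpaired arrays, the linear share, the second probe sets of emb-9 and ost-1, and each set left out. Leaving out single cultures was chosen after seeing the data.

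Growth sets pair a wild-type with a mutant culture, per the series' design text. Across probe sets, same-numbered cultures deviated from their genotype means with correlations of -0.032, -0.0627 and 0.0234 (log2 P/NP) and of -0.113, -0.0532 and 0.13 (log2 P+NP). Arrays of 1 group correlated at 0.916 to 0.987, and none was identical to another.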

Additional observations from a re-analysis of the deposited data

How the results depend on the processing

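Brightest probe sets of members gave 0 calls in association under every alternative run. In wild type 6 to 8 were polysomal, and in the mutant 7 to 8, except where probe sets above the median signal were kept, which left 7 members to count (5 and 6 of 7). In combined signal 1 member was called with signals as deposited, median scaling, an offset of 50, probe sets above the median signal, a variance trend, the replicate block or the further probe sets. Leaving out a culture or a set gave 0 to 2. The block changed the call of lam-2 and of no other member. The ost-1 171988_at value in wild type reversed with signals as deposited (-0.23), median scaling (-0.35) and scaling within fractions (-0.17), and ranged from -0.095 to 0.18 without 1 culture or set. For lam-2 that range was -0.16 to 0.40. Association changes reversed for lam-1 with median scaling (-0.017), for lam-3 with signals as deposited (0.039) and an offset of 50 (0.0029), for emb-9 190353_s_at with signals as deposited (-0.20) and median scaling (-0.27) and for nid-1 with signals as deposited (0.042). With a culture or set left out they ranged from -0.23 to 0.24 for lam-1, from -0.77 to 0.24 for lam-3, from -0.20 to 0.41 for emb-9 190353_s_at and from -0.67 to 0.11 for ost-1 191389_s_at. Combined-signal changes ranged from -0.26 to 0.071 for emb-9 173790_at, from -0.62 to 0.040 for lam-1, from -0.25 to 0.065 for cle-1 and from -0.17 to 0.028 for nid-1. Over all probe sets 17 changed in association. There were 9 with signals as deposited, 609 with the offset, 568 above the median signal, 614 with the trend, 0 with the replicate block, 6 with fractions unpaired, 53 on the linear share and 0 to 1 without a culture or set. Keeping brighter probe sets, with fewer tested, gave 4371 and 4099 fraction calls for wild type and mutant and 3236 in combined signal, and 8, 9 and 6 on the wider list. Without a culture or set the fraction calls were 4857 to 7289 and 4018 to 7129, the combined-signal calls 659 to 6503, and those of the wider list 1 to 10. The causes of these shifts were not tested, beyond fewer cultures or probe sets where some were left out. The median mutant log2 P/NP of all probe sets was 0.05 with signals as deposited. Members with P/NP near 1, small changes and the dim lam-3 are limited by 3 cultures a genotype and, for lam-3, by signal near background.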
